A study of Mus musculus with 17 samples.

Results

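The response of Cblb knockout (KO) CD8+ T cells to 12 hours with anti-CD3 and anti-CD28 antibodies given together was measured by RNA sequencing and is described here across all genes. The members are 6 of the 17 libraries analysed, chosen by the genotype and stimulation in their labels: 3 of KO cells given both antibodies and 3 of unstimulated KO cells. All cells were CD8+ T cells of C57BL/6 mice. Set beside these 6 libraries were 3 of KO cells given anti-CD3 alone for 12 hours, 2 of wild-type (WT) cells given both antibodies for 12 hours and 3 of unstimulated WT cells. A further 3 libraries of WT cells given anti-CD3 entered only the estimate of the spread. The labels do not say how the knockout was made, whether it was restricted to a cell type, whether replicates came from separate animals, or what antibody doses were used. The p-values below therefore measure the spread between these libraries, which may be technical. No group was kept for 12 hours without antibody, so stimulation and time in culture cannot be told apart.

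Anti-CD3 engages the T cell receptor complex, and anti-CD28 engages the co-receptor that sustains PI3K and NF-kappaB signalling. Cbl-b is an E3 ubiquitin ligase that restrains signalling from both receptors, and T cells that lack it are known to depend less on CD28. An activated CD8+ T cell secretes cytokines and chemokines, arms its cytotoxic granules, and enlarges its machinery for making proteins before it divides.

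The targeted gene was read first. Cblb had 80.2, 82.8 and 95.9 CPM (counts scaled to a common library total) in both-antibody KO libraries, 78.4, 79.2 and 83.8 CPM in anti-CD3 KO libraries and 66.2, 68.8 and 63.9 CPM in unstimulated KO libraries, against 178 and 179 CPM in both-antibody WT libraries and 159.7, 139.5 and 147 CPM in unstimulated WT libraries. Each of these KO libraries lay below each of these WT libraries, and the counts that remain do not tell an intact from a truncated transcript. Totals in the 6 libraries were 17816670, 18248572 and 17879429 counts with both antibodies, and 19181131, 160059285 and 16640125 counts in unstimulated KO cells, so unstimulated replicate 2 was by far the deepest. CPM is a share of a library, and fewer cells of a type and less RNA per cell cannot be told apart. The 10 CD8 T cell markers were all detected and summed to 2427 to 2665 CPM in both-antibody KO cells, against 4399 to 5009 CPM in unstimulated KO cells. Of 14 myeloid and dendritic cell markers, 10 were under 1 CPM in all 6 libraries (S100a9 was at 0), and the list summed to 13.8 to 20.0 CPM with both antibodies and 29.4 to 32.7 CPM unstimulated. The 8 erythroid and platelet markers summed to 0.586 to 2.83 CPM with both antibodies and 1.29 to 3.93 CPM unstimulated, with Pf4 and Ppbp at 0, and the 8 NK cell markers to 3.99 to 5.51 CPM with both antibodies and 10.1 to 12.5 CPM unstimulated. The B cell markers summed to 162 to 235 CPM with both antibodies and 374 to 445 CPM unstimulated. The CD4 T cell markers summed to 174 to 325 CPM with both antibodies and 107 to 126 CPM unstimulated, and the part of other cells in the results below was not tested.

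Nearly as many genes were higher as lower after stimulation. Of 16246 genes tested, 3731 (23%) were higher and 3648 (22.5%) were lower in both-antibody KO cells at an adjusted p under 0.05 in edgeR's quasi-likelihood test with Benjamini-Hochberg adjustment, 7379 (45.4%) in all. The change was at least 2-fold for 1137 genes that were higher and 1179 that were lower, and at least 4-fold for 297 and 269. The libraries of the 2 groups did not overlap in CPM for 7253 genes (44.6%). Values moved with the GC content of the genes: the median log2 fold change was 0.48 for genes of at most 40% GC and -0.56 for genes of at least 56% GC. Replicate 3 with both antibodies and unstimulated replicate 2 leaned most strongly, in opposite directions, and without this pair the medians were 0.16 and -0.20, and 2254 genes (14%) were higher and 2480 (15.3%) lower. With a GC correction 3288 genes (20.2%) were higher and 3793 (23.3%) lower. Of the 7379 genes called without it, 5161 kept call and direction and 355 changed sign. The part of GC content in single genes was not tested. Every gene said below to have risen or fallen kept an adjusted p under 0.05 with a GC correction, without that pair of libraries and under every other alternative tried, unless a larger p is given beside it. Counts over a gene list are given a second time where leaving out libraries or correcting for GC moved a count of 4 or more by over 1.5 times. The shares over all genes, 23% higher and 22.5% lower, stand behind every list count, and lists near both shares are described by their members only.

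The genes that rose most were led by secreted signals. The 10 highest log2 fold changes among called genes with non-overlapping libraries and a mean log2 CPM of at least 2 over the 17 libraries were those of Ccl1, Ccl3, Ccl9, Il2ra, Xcl1, Ccl4, Ifng, Sema7a, Gzmb and Bcat1. Il2ra, the alpha chain of the high-affinity interleukin-2 receptor, had 98.9, 122 and 180.5 CPM in both-antibody KO cells, against 0.842, 0.833 and 1.68 CPM in unstimulated KO cells (log2 fold change 7.09 ± 0.29, standard error here and below). Sema7a, a membrane-anchored semaphorin, had 61.6, 68.2 and 58.1 CPM with both antibodies and 1.57, 1.14 and 1.94 CPM unstimulated (5.50 ± 0.21). Bcat1, the cytosolic aminotransferase of branched-chain amino acids, had 51.5, 67.6 and 70.1 CPM with both antibodies and 2.02, 1.57 and 2.13 CPM unstimulated (5.14 ± 0.17). Libraries that did not overlap were a condition for the choice of these 3 genes.

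The genes that fell most were led by immediate-early factors. The 10 lowest under the same conditions were Fosb, Fos, Dtx1, Slc16a5, Dusp1, Ggt1, Nrp2, Tnk2, Junb and Igfbp4. Fos, which pairs with Jun proteins to form AP-1, had 9.38, 8.01 and 8.2 CPM in both-antibody KO cells, against 502, 552 and 343 CPM in unstimulated KO cells (-5.77 ± 0.18). Dusp1, a phosphatase that inactivates MAP kinases, had 14.9, 12.1 and 10.3 CPM with both antibodies and 179.6, 185 and 145 CPM unstimulated (-3.77 ± 0.13). Both genes were chosen for groups that did not overlap. Dtx1, a Notch pathway ubiquitin ligase linked to T cell anergy, had 13.6, 7.33 and 3.63 CPM with both antibodies and 185, 192 and 126 CPM unstimulated (-4.35 ± 0.33). Slc16a5, a monocarboxylate transporter family member, fell by 4.01 on the log2 scale, and Igfbp4, which binds insulin-like growth factors, fell by 3.13. All 10 of these highest genes were also called higher in WT cells, where 17.8% of all genes were, and 9 of the 10 lowest were called lower there, where 16.3% of all genes were. The exception was Junb, with a log2 fold change of -0.03 in WT cells.

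**Figure D1:**
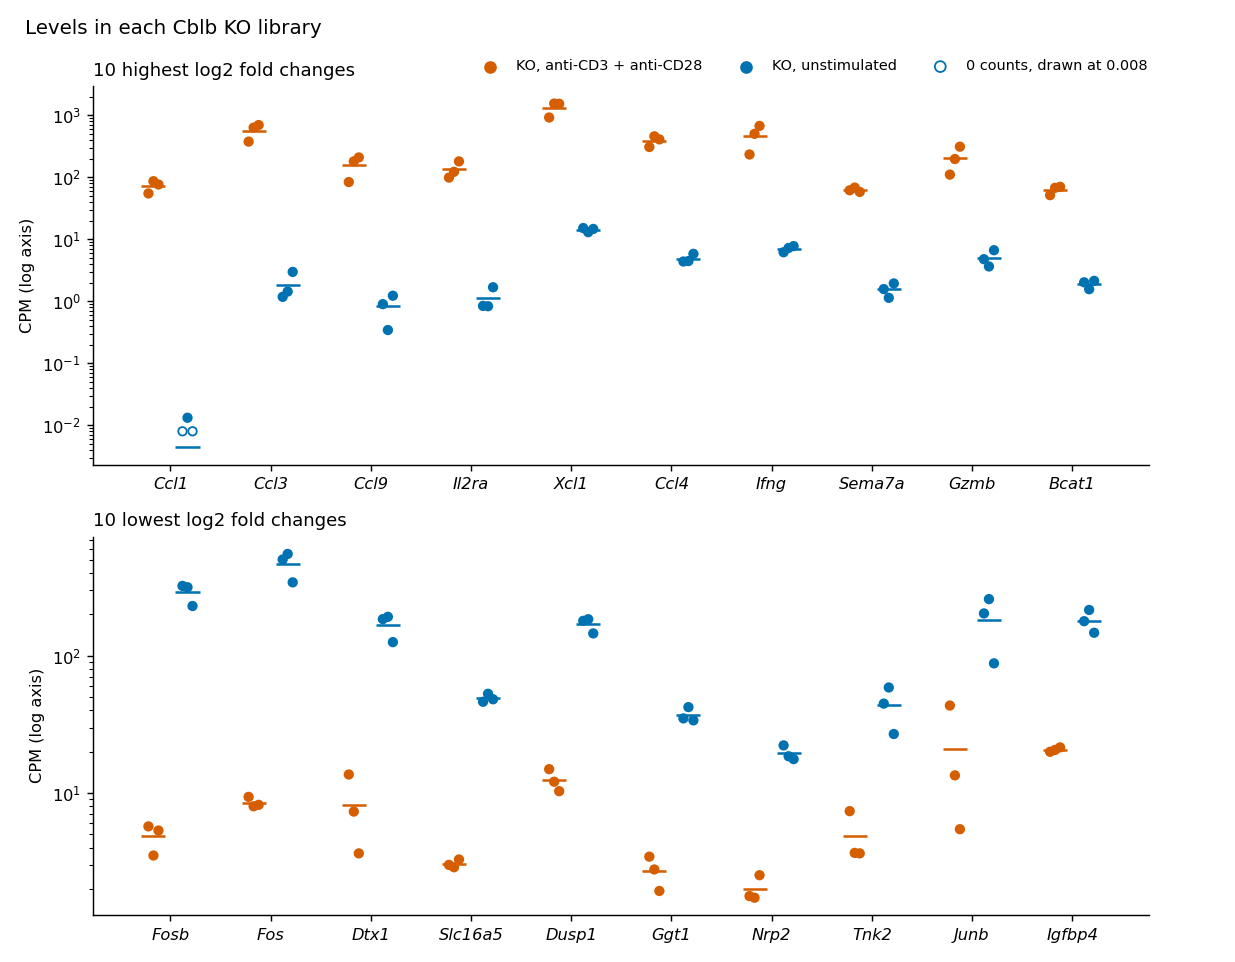
CPM (log axis) of the 10 called genes with the highest and the 10 with the lowest log2 fold change between both-antibody and unstimulated KO cells, chosen for non-overlapping libraries and a mean log2 CPM of at least 2. Points are the 3 libraries of each group, bars their means, and open circles counts of 0 set at the foot of the axis. Stimulated libraries reach 1544 CPM for Xcl1 and unstimulated ones 552 CPM for Fos, and Junb spreads widely with both antibodies.

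Cytokine genes rose as a group. Of 16 T cell cytokine genes tested, 10 were higher and 2 lower (4 lower without stimulated replicate 1), with a median log2 fold change of 2.27 against 0.01 for all genes tested. Ifng encodes interferon-gamma, the main cytokine of CD8+ effector cells. It had 233, 502 and 674 CPM in both-antibody KO cells, against 6.18, 7.24 and 7.76 CPM in unstimulated KO cells (6.05 ± 0.37, adjusted p = 2.55e-08). The groups lay far apart, and among the stimulated libraries replicate 1 was low and replicate 3 high. Ifng was among the genes chosen for libraries that did not overlap. Il2, the T cell growth factor, had 6.38, 16.4 and 25.1 CPM with both antibodies and 0.112, 0.0264 and 0 CPM unstimulated (8.73 ± 0.74). Il3, a growth factor for myeloid progenitors, had 3.72, 8.79 and 9.02 CPM with both antibodies and 0 counts in every unstimulated KO library, and was at least 442-fold higher, taking 3 counts over the unstimulated group as the floor, a bound set by the deep replicate 2 and 79.6-fold without it. Lif, a cytokine of the interleukin-6 family, had 10.2, 13.5 and 23.7 CPM with both antibodies and 0.0562, 0.231 and 0.453 CPM unstimulated (6.05 ± 0.49). Il2, Il3 and Lif were thus low-count transcripts even after stimulation, while Ifng was abundant.

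Cytokine genes of the tumour necrosis factor (TNF) family did not all move. Tnf had 80.0, 107 and 110.1 CPM in both-antibody KO cells, against 20.0, 26.5 and 24.1 CPM in unstimulated KO cells (2.06 ± 0.18), so it was already present before stimulation. Lta, lymphotoxin alpha, had 33.6, 52 and 66.6 CPM with both antibodies and 5.84, 6.03 and 4.27 CPM unstimulated (3.21 ± 0.25). Tnfsf11, which encodes RANK ligand, rose by 4.62 and Tnfsf14, which encodes LIGHT, by 2.48 on the log2 scale. Ltb, the membrane partner of lymphotoxin alpha, had 239.8, 165 and 85.8 CPM with both antibodies and 232, 269.6 and 168 CPM unstimulated (-0.45 ± 0.28, adjusted p = 0.207), and its libraries overlapped. Outside this family, Csf2, the granulocyte-macrophage colony-stimulating factor, rose by 3.78, and Osm, oncostatin M, was lower by -0.53 in log2 fold change, a call lost under other settings (adjusted p up to 0.249).

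Of 9 chemokine genes tested, 8 were higher and 1 was lower. Their summed level was 1824, 2980.4 and 3020.0 CPM in both-antibody KO cells, against 93.5, 92.3 and 115 CPM in unstimulated KO cells. Xcl1, lymphotactin, which attracts cross-presenting dendritic cells, was the most abundant, at 920.3, 1544 and 1533 CPM with both antibodies and 15.2, 13 and 14.7 CPM unstimulated (6.55 ± 0.19, adjusted p = 2.09e-13). Ccl3 and Ccl4 are the inflammatory chemokines MIP-1alpha and MIP-1beta. Ccl3 had 376, 632 and 696 CPM with both antibodies and 1.18, 1.43 and 2.98 CPM unstimulated (8.40 ± 0.32), and Ccl4 had 308, 458 and 408 CPM with both antibodies and 4.38, 4.46 and 5.82 CPM unstimulated (6.35 ± 0.18). Ccl9, a mouse chemokine that binds CCR1, had 83.7, 180.4 and 209 CPM with both antibodies and 0.898, 0.344 and 1.23 CPM unstimulated (8.14 ± 0.51). Ccl1, the ligand of CCR8, had 54.9, 86.4 and 76.5 CPM with both antibodies, against 0, 0.0132 and 0 CPM unstimulated, so that its fitted fold rests on unstimulated libraries at or next to 0. Ccl5, RANTES, went the other way, with 44.8, 36.8 and 49.9 CPM in both-antibody KO cells and 68.8, 69.2 and 84.4 CPM in unstimulated KO cells (-0.76 ± 0.16).

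Receptors for cytokines divided. Of 29 genes for cytokine receptors and the JAK-STAT pathway, 7 were higher and 11 lower (7 lower without the pair of opposite GC lean). Beside Il2ra, the largest rise was in Il12rb2, the signalling chain of the interleukin-12 receptor, with 30.4, 30.2 and 29.7 CPM in both-antibody KO cells, against 1.01, 0.668 and 1.36 CPM in unstimulated KO cells (5.11 ± 0.24). Ifngr1, the ligand-binding chain of the interferon-gamma receptor, rose by 0.80 on the log2 scale. Il2rb, the beta chain shared by the interleukin-2 and interleukin-15 receptors, fell by 0.72 on the log2 scale, Il21r, the interleukin-21 receptor, by 1.02, and Il27ra, the interleukin-27 receptor, by 0.97. The kinase Jak1 (-0.18 ± 0.08) did not pass the test (adjusted p = 0.0661). Il7r, the interleukin-7 receptor that keeps naive cells alive, had a log2 fold change of 0.41 ± 0.10, which was -0.01 with the GC correction and did not pass there (adjusted p up to 0.958).

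Feedback inhibitors of cytokine signalling rose more often than they fell: of 8 SOCS family genes, 5 were higher and 1 lower. Cish, which restrains interleukin-2 and T cell receptor signalling, had 25.9, 26.9 and 31.5 CPM in both-antibody KO cells, against 2.92, 3.17 and 5.24 CPM in unstimulated KO cells (2.94 ± 0.26). Socs1, an inhibitor of JAK kinases downstream of interferons, rose by 0.91. Socs3, which acts mainly on interleukin-6 type receptors, fell by 1.39 on the log2 scale.

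Among 15 costimulatory receptors, 6 were higher and 4 lower (2 lower without stimulated replicate 2, and also without unstimulated replicate 1). Tnfrsf9, which encodes 4-1BB, a receptor that marks recently activated CD8+ cells, had 157, 217 and 216 CPM in both-antibody KO cells, against 12.2, 10.6 and 11.3 CPM in unstimulated KO cells (4.12 ± 0.13). Slamf1, a homotypic adhesion and signalling receptor, rose by 2.70, Crtam, an adhesion receptor of activated CD8+ cells, by 1.80, and Icos, a CD28 relative, by 0.77 on the log2 scale. Cd27, a TNF receptor family member of resting cells, fell by 0.59 and Cd2, an adhesion receptor, by 0.90. Tnfrsf4, which encodes OX40, had only 4.49, 4.45 and 3.16 CPM with both antibodies and 2.08, 3.1 and 3.04 CPM unstimulated (0.54 ± 0.22, adjusted p = 0.0515), and its libraries did not overlap. Cd28 itself had 190.0, 203 and 239.7 CPM with both antibodies and 175, 124 and 173 CPM unstimulated (0.42 ± 0.12), but 0.03 with the GC correction, where it did not pass (adjusted p up to 0.793).

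Inhibitory receptors were split, with 7 of 16 higher and 6 lower. Pdcd1, which encodes PD-1, had 20.9, 25.1 and 25.1 CPM in both-antibody KO cells, against 2.3, 2.34 and 2.39 CPM in unstimulated KO cells (3.34 ± 0.17). The groups did not overlap, and each was tight. Cd200, a ligand that signals through an inhibitory receptor on myeloid cells, rose by 3.32, Lag3, which binds MHC class II, by 1.35, and Cd160, which binds the herpesvirus entry mediator, by 1.00. Cd96, a receptor of the nectin family, fell by 0.99 and Lair1, a collagen receptor, by 1.32 on the log2 scale. Ctla4, the competitor of CD28, had a log2 fold change of 0.55 ± 0.16, with an adjusted p of up to 0.315 under other settings.

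The receptor complex and its first signalling layer leaned down. Of 23 genes for the T cell receptor complex and proximal signalling, 0 were higher and 16 lower, with a median of -0.49, and the count of higher genes was 3 with the GC correction. Lck, the kinase that starts receptor signalling, had 351, 293 and 221 CPM in both-antibody KO cells, against 614, 709 and 554 CPM in unstimulated KO cells (-1.12 ± 0.13). Cd8b1, the CD8 beta chain, had 423, 402 and 338 CPM with both antibodies and 919.8, 992 and 863 CPM unstimulated (-1.26 ± 0.09). Plcg1, phospholipase C gamma 1, fell by 0.81 on the log2 scale. Beside these falls, 9 of the 10 CD8 T cell markers were called lower.

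Signalling partners of CD28 and PI3K were called about as often as all genes, 6 higher and 6 lower of 23 (26.1% each). Inpp5d, which encodes the inositol phosphatase SHIP-1, fell by 0.93, Foxo1, the transcription factor that PI3K signalling excludes from the nucleus, by 0.88, and Pik3r1, the regulatory subunit p85-alpha, by 0.74 on the log2 scale. Rheb, the GTPase that activates mTOR, rose by 0.58.

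Intracellular brakes of the receptor pathway were more often lower. Of 24 phosphatases and kinases of T cell restraint, 5 were higher and 15 lower. The rises were large in few genes: Spry1, an inhibitor of Ras signalling, had 34.3, 41 and 42.2 CPM with both antibodies and 2.02, 1.94 and 2.39 CPM unstimulated (4.25 ± 0.14), and Dusp4, a nuclear phosphatase of ERK, had 10.8, 12.6 and 14.1 CPM with both antibodies and 2.3, 3.38 and 2.2 CPM unstimulated (2.18 ± 0.17). Spred1, a relative of Spry1, rose by 1.26. Beside Dusp1, Dusp10, a phosphatase of JNK and p38, fell by 1.36, Dok2, an adaptor that recruits RasGAP, by 1.32, and Rasal3, a Ras GTPase-activating protein, by 1.08 on the log2 scale. Among 16 E3 ligases and their adaptors, 7 were higher (4 without the pair of opposite GC lean) and 3 lower, and Ubash3a, a phosphatase-like partner of Cbl proteins, fell by 0.67.

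**Figure D2:**
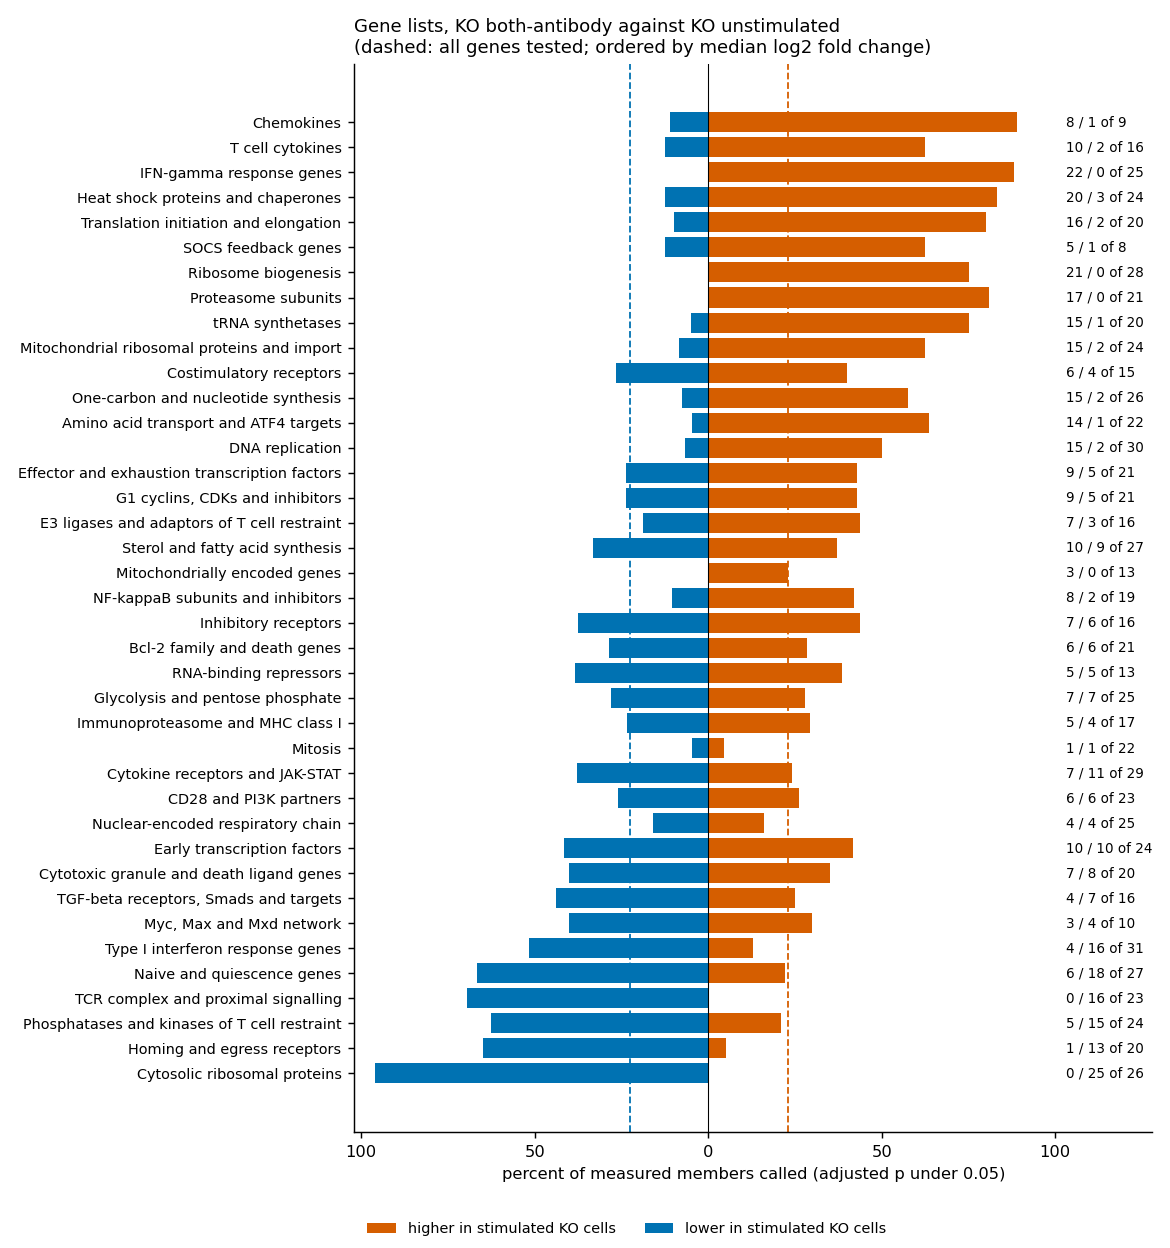
Percent of tested members called higher (right) and lower (left) in both-antibody KO cells against unstimulated KO cells, for each gene list, with dashed lines at the shares over all 16246 genes tested (23% higher, 22.5% lower). Lists of interferon-gamma response, ribosome biogenesis, proteasome and chaperone genes hold mostly higher genes, and those of cytosolic ribosomal proteins, T cell receptor signalling and homing receptors mostly lower ones.

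Early transcription factors separated into a set that was high and a set that was low at 12 hours. Of 24 tested, 10 were higher and 10 lower. Irf4, whose level follows the strength of receptor signalling, had 287, 362 and 411 CPM in both-antibody KO cells, against 9.88, 10.2 and 12.9 CPM in unstimulated KO cells (5.02 ± 0.16, adjusted p = 3.48e-13). Nr4a3, an orphan nuclear receptor induced by calcium signals, had 114, 153 and 196 CPM with both antibodies and 7.92, 8.28 and 6.47 CPM unstimulated (4.33 ± 0.17). Its relatives Nr4a2 and Nr4a1 rose by 2.89 and 1.46, and Egr2, a zinc-finger factor induced by receptor signalling, by 2.81 on the log2 scale. Myc, the driver of growth, had 130.2, 119.8 and 131 CPM with both antibodies and 68.8, 89.2 and 61.2 CPM unstimulated (0.79 ± 0.12). In contrast Fosb, an AP-1 subunit, had 5.71, 3.51 and 5.33 CPM with both antibodies and 323, 315 and 230.4 CPM unstimulated (-5.90 ± 0.26), Jun had 74.5, 56.3 and 52.3 CPM with both antibodies and 250.3, 301 and 169.7 CPM unstimulated (-1.98 ± 0.17), and Junb had 43.4, 13.4 and 5.45 CPM with both antibodies and 203, 259 and 88 CPM unstimulated (-3.15 ± 0.65). The libraries of the 2 groups did not overlap for any of these 3 genes, as for 44.6% of all genes tested, and Fosb and Junb were among those chosen for it. Junb spread widely among the stimulated libraries, with replicate 1 high and replicate 3 low. Egr1, a relative of Egr2, had 25.1, 23.3 and 26.1 CPM with both antibodies and 29, 31.7 and 22.8 CPM unstimulated (-0.17 ± 0.13, adjusted p = 0.304).

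Of 21 transcription factors of effector and exhausted cells, 9 were higher and 5 lower. Irf8, a partner of Irf4 in effector CD8+ cells, had 87.7, 101 and 96.2 CPM in both-antibody KO cells, against 8.76, 9.9 and 7.11 CPM in unstimulated KO cells (3.44 ± 0.17). Zeb2, a transcriptional repressor, rose by 3.04, Hif1a, the oxygen-sensing factor, by 1.27, and Tbx21, which encodes T-bet, by 0.61 on the log2 scale. Tox, a factor of exhausted cells, fell by 0.93, Gata3 by 0.77, and Id2, an inhibitor of E proteins, by 0.61. Eomes, a relative of T-bet, had 82.9, 99 and 134 CPM with both antibodies and 86, 89.3 and 90.2 CPM unstimulated (0.25 ± 0.15, adjusted p = 0.197), and its libraries overlapped.

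The NF-kappaB list held 8 higher and 2 lower of 19 genes, with 13 higher under the GC correction and 5 lower without stimulated replicate 1. Rel, which encodes the subunit c-Rel, had 107, 139 and 163 CPM in both-antibody KO cells, against 32.8, 29.5 and 40.2 CPM in unstimulated KO cells (2.00 ± 0.14). The subunits Nfkb2 and Nfkb1 rose by 1.09 and 0.88, and Nfkbid, a nuclear inhibitor-like regulator, by 1.08. Tnfaip3, which encodes the deubiquitinase A20 that ends NF-kappaB signalling, fell by 1.18 on the log2 scale. In the network of Myc partners, 3 of 10 genes were higher and 4 lower (2 lower with the GC correction, and also without unstimulated replicate 2), and Mxd4, a Myc antagonist, fell by 1.10.

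Among 13 RNA-binding repressors of cytokine transcripts, 5 were higher and 5 lower. Zfp36, which encodes tristetraprolin and promotes decay of AU-rich cytokine mRNAs, had 63.7, 47.3 and 43.3 CPM in both-antibody KO cells, against 217, 248 and 165 CPM in unstimulated KO cells (-2.03 ± 0.14). Rc3h1 and Rc3h2, which encode the Roquin proteins, rose by 0.66 and 0.67, and Zfp36l1, a relative of Zfp36, by 0.52. Btg2, which recruits deadenylases in resting cells, fell by 0.71.

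The cytotoxic programme moved unevenly. Of 20 genes for granules and death ligands, 7 were higher and 8 lower. Gzmb, granzyme B, had 110.4, 197 and 311 CPM in both-antibody KO cells, against 4.77, 3.64 and 6.66 CPM in unstimulated KO cells (5.44 ± 0.47, adjusted p = 1.86e-06), while Gzmm, granzyme M, had 2.55, 1.83 and 2.05 CPM with both antibodies and 15.2, 16.8 and 20.7 CPM unstimulated (-3.03 ± 0.23). The groups did not overlap for either gene, as for 44.6% of all genes tested, and Gzmb was among the genes chosen for it. Serpinb9, the granzyme B inhibitor that protects the killer cell, rose by 2.54, its relative Serpinb6b by 2.55, and Srgn, the proteoglycan core of the granule, by 1.07. Prf1, perforin, had 80.6, 89.1 and 78.6 CPM with both antibodies and 98.9, 113 and 83.1 CPM unstimulated (-0.25 ± 0.12, adjusted p = 0.0821). Ctsw, cathepsin W, fell by 1.72, Unc13d, which primes granules for release, by 1.30, and Nkg7, a granule membrane protein, by 1.18 on the log2 scale. Fasl, the Fas ligand, had a log2 fold change of 1.01 ± 0.23 (adjusted p = 0.00223, up to 0.0682 under other settings).

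Genes of resting and recirculating cells were mostly lower, with exceptions. Of 27 naive and quiescence genes, 6 were higher (2 with the GC correction) and 18 lower, and of 20 homing and egress receptors 1 was higher and 13 lower. Rasgrp2, an activator of the integrin switch Rap1, fell by 1.76, Id3, an inhibitor of E proteins, by 1.16, and Igfbp4 most of all. Ccr7, the lymph node homing receptor, had 283, 238 and 192 CPM in both-antibody KO cells, against 381, 429 and 318 CPM in unstimulated KO cells (-0.67 ± 0.13), and S1pr1, the receptor for leaving lymph nodes, had 493, 484 and 448 CPM with both antibodies and 652, 622 and 594 CPM unstimulated (-0.39 ± 0.08). These falls were less than 2-fold, although the groups did not overlap. Itgae, which encodes CD103, a marker of tissue-resident cells, fell by 1.84, and Itgb7 and Ccr9, which guide cells to the gut, by 1.32 each. Klf2, the factor that keeps S1pr1 expressed, had 163, 134 and 116 CPM with both antibodies and 282, 289.5 and 214 CPM unstimulated (-0.93 ± 0.13), but -0.20 with the GC correction (adjusted p there 0.315, the largest of its alternatives 0.349). Bach2, a repressor that preserves stem-like cells, rose by 0.79, and Tcf7, which encodes TCF-1, was lower by -0.42 in log2 fold change (adjusted p up to 0.0817 under other settings). Among 16 genes of TGF-beta signalling, 4 were higher and 7 lower. Tgfbr2, the receptor that binds TGF-beta, had 266, 234 and 201 CPM with both antibodies and 341, 356 and 311 CPM unstimulated (-0.52 ± 0.10), Tgfbr3, betaglycan, fell by 1.22, and Smad7, the inhibitory Smad, by 0.75.

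Genes that build and feed ribosomes rose while the ribosomal protein genes fell. Of 28 ribosome biogenesis genes, 21 were higher and 0 lower (median 0.67), and of 26 cytosolic ribosomal proteins 0 were higher and 25 lower (median -0.76). Ncl, nucleolin, had 759, 883 and 1134 CPM in both-antibody KO cells, against 457, 275 and 476 CPM in unstimulated KO cells (1.20 ± 0.17). Nop58, a core protein of box C/D snoRNPs, rose by 1.42, and Wdr12, a factor of the large subunit, by 1.31 on the log2 scale. Rps18 fell by 1.07, and ribosomal protein genes have processed pseudogenes with which reads may be shared. Summed over the list, ribosomal protein genes took 27055, 26912 and 23909 CPM with both antibodies and 43496, 44821 and 37650.5 CPM unstimulated. The groups did not overlap in this sum.

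Translation and its supply followed the biogenesis genes. Of 20 initiation and elongation factors, 16 were higher and 2 lower, of 20 tRNA synthetases 15 and 1, of 22 amino acid transporters and ATF4 targets 14 and 1, and of 26 one-carbon and nucleotide synthesis genes 15 and 2. Eif4e, which binds the mRNA cap, rose by 1.41, and Etf1, the release factor, by 1.32, while Eef1a1, the elongation factor and an abundant transcript, had 12057, 14036 and 13557 CPM with both antibodies and 18401, 18411 and 17867 CPM unstimulated (-0.46 ± 0.09). Wars, the tryptophanyl-tRNA synthetase, which interferon-gamma is known to induce, had 327, 286 and 213 CPM in both-antibody KO cells, against 50.7, 54.2 and 58.1 CPM in unstimulated KO cells (2.34 ± 0.13). The next largest rise among synthetases was that of Iars, for isoleucine (1.12). Slc7a5, the light chain of the large neutral amino acid transporter, had 85.9, 83.6 and 80.4 CPM with both antibodies and 38.2, 39.4 and 38.1 CPM unstimulated (1.11 ± 0.13), and Psat1, of serine synthesis, rose by 1.39. Shmt1, the cytosolic serine hydroxymethyltransferase, rose by 1.99, Mthfd2, its mitochondrial folate partner, by 1.25, Ctps, of CTP synthesis, by 1.13, and Umps, of UMP synthesis, by 1.09.

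Protein folding and turnover genes were mostly higher. Of 24 heat shock proteins and chaperones, 20 were higher and 3 lower, and of 21 proteasome subunits 17 were higher and 0 lower. Hspd1, the mitochondrial chaperonin, had 444, 662 and 962 CPM in both-antibody KO cells, against 169, 146 and 188 CPM in unstimulated KO cells (2.04 ± 0.20). Hsph1 rose by 1.63, Hsp90aa1, the inducible form of HSP90, by 1.34, and Pdia6, a disulphide isomerase of the endoplasmic reticulum, by 1.20, while Dnajb1, a co-chaperone, fell by 0.60 on the log2 scale. The other 2 lower genes, named after their values were seen, were the stress-inducible HSP70 genes, near-identical copies whose single values are uncertain. Hspa1a had 0, 0.0523 and 0.117 CPM with both antibodies and 0.73, 5.97 and 2.98 CPM unstimulated (-5.87 ± 1.01), and Hspa1b had 1.55, 0.628 and 1.11 CPM with both antibodies and 2.41, 13.8 and 6.34 CPM unstimulated (-2.85 ± 0.56). Both were low in every stimulated library and spread widely among the unstimulated ones, with replicate 2 high. Psmd1, of the proteasome's regulatory particle, rose by 1.09, and Psme3, the nuclear activator, by 0.96. The 17 genes of the immunoproteasome and MHC class I divided, 5 higher and 4 lower, or 3 and 1 without the pair of opposite GC lean.

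Mitochondrial and metabolic lists were mixed. Among 24 mitochondrial ribosomal and import genes, 15 were higher and 2 lower, with Timm8a1, an import chaperone, rising by 1.20. Among 25 nuclear genes of the respiratory chain, 4 were higher and 4 lower, against 1 and 1 without the pair of opposite GC lean, 8 higher without stimulated replicate 1, and 2 higher and 2 lower without stimulated replicate 2 or without unstimulated replicate 2. Cycs, cytochrome c, had 129, 181 and 234 CPM in both-antibody KO cells, against 80.0, 60.2 and 80.0 CPM in unstimulated KO cells (1.31 ± 0.16). The 13 mitochondrially encoded genes gave 3 higher and 0 lower, but 0 higher and 5 lower with the GC correction, and 0 higher without stimulated replicate 3 or without unstimulated replicate 2. Of 25 genes of glycolysis and the pentose phosphate pathway, 7 were higher and 7 lower (4 higher without stimulated replicate 2, and also without unstimulated replicate 1). Hk2, the hexokinase of activated cells, had 31.5, 40.8 and 42.5 CPM with both antibodies and 4.04, 4.34 and 4.27 CPM unstimulated (3.17 ± 0.17), while Hk1, the hexokinase of resting cells, had 78.7, 61.5 and 51.5 CPM with both antibodies and 106, 129 and 97.3 CPM unstimulated (-0.79 ± 0.13). Pgam1 rose by 0.96, Slc16a1, a lactate transporter, by 0.79, and Pgk1 by 0.76. In sterol and fatty acid synthesis 10 of 27 were higher and 9 lower, the lower count being 4 without the pair of libraries of opposite GC lean, and also without unstimulated replicate 2 alone. Idi1, Cyp51, Sqle and Hmgcs1, all enzymes of cholesterol synthesis, rose by 2.50, 1.63, 1.24 and 0.98, and Abca1, a cholesterol exporter, fell by 1.41 on the log2 scale.

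The genes induced by interferon-gamma rose almost throughout, and most of those typical of type I interferon did not. Of 25 interferon-gamma response genes tested, 22 were higher and 0 lower (median 1.44), and of 31 type I interferon response genes 4 were higher (7 without unstimulated replicate 3) and 16 lower (median -0.38). Gbp2, a guanylate-binding protein that attacks intracellular pathogens, had 1422, 1637 and 1601 CPM in both-antibody KO cells, against 148, 142 and 235 CPM in unstimulated KO cells (3.15 ± 0.15). Cxcl10, the chemokine ligand of CXCR3, had 30.5, 37.8 and 38.4 CPM with both antibodies and 1.35, 1.84 and 2.39 CPM unstimulated (4.27 ± 0.18), and Cd274, which encodes PD-L1, had 235, 256 and 228 CPM with both antibodies and 35.7, 38 and 61.6 CPM unstimulated (2.42 ± 0.16). No stimulated library of these 3 genes lay within the unstimulated range. Iigp1, an immunity-related GTPase, had 638, 807 and 889.6 CPM with both antibodies and 69.3, 51.5 and 171 CPM unstimulated (3.01 ± 0.34), and unstimulated replicate 3 stood above the other unstimulated libraries there. Summed over the interferon-gamma list, the levels were 13214, 14054 and 13515 CPM with both antibodies and 4655, 4669 and 6788 CPM unstimulated, where replicate 3 was again the highest unstimulated library. The list holds genes with near-identical copies, such as guanylate-binding and T cell specific GTPases, whose single values are uncertain.

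Within the type I list, Mx1, an antiviral GTPase, had 2.39, 2.3 and 2.64 CPM in both-antibody KO cells, against 14.3, 21.5 and 27.2 CPM in unstimulated KO cells (-3.11 ± 0.23). Slfn5, a Schlafen family gene, had 20.2, 10.9 and 20.2 CPM with both antibodies and 76.9, 72.4 and 99.7 CPM unstimulated (-2.28 ± 0.20), and Oas2 and Oas1a, which sense double-stranded RNA, fell by 2.05 and 1.46 on the log2 scale. The 4 genes that were higher were Samhd1, a dNTP hydrolase, with 1189, 1160.2 and 1109 CPM with both antibodies and 282, 287 and 357 CPM unstimulated (1.90 ± 0.10), as well as Parp14 (1.07), Zbp1 (0.65) and Ifit3 (0.46, adjusted p up to 0.256 under other settings). Summed over the type I list, the levels were 3030.2, 2966 and 2893 CPM with both antibodies and 1856, 1971 and 2478 CPM unstimulated. The sum was thus higher with both antibodies although more genes of the list were lower, and without Samhd1, its most abundant gene, it was 1842, 1806 and 1783 CPM with both antibodies and 1574, 1684 and 2121 CPM unstimulated, where the groups overlapped.

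**Figure D3:**
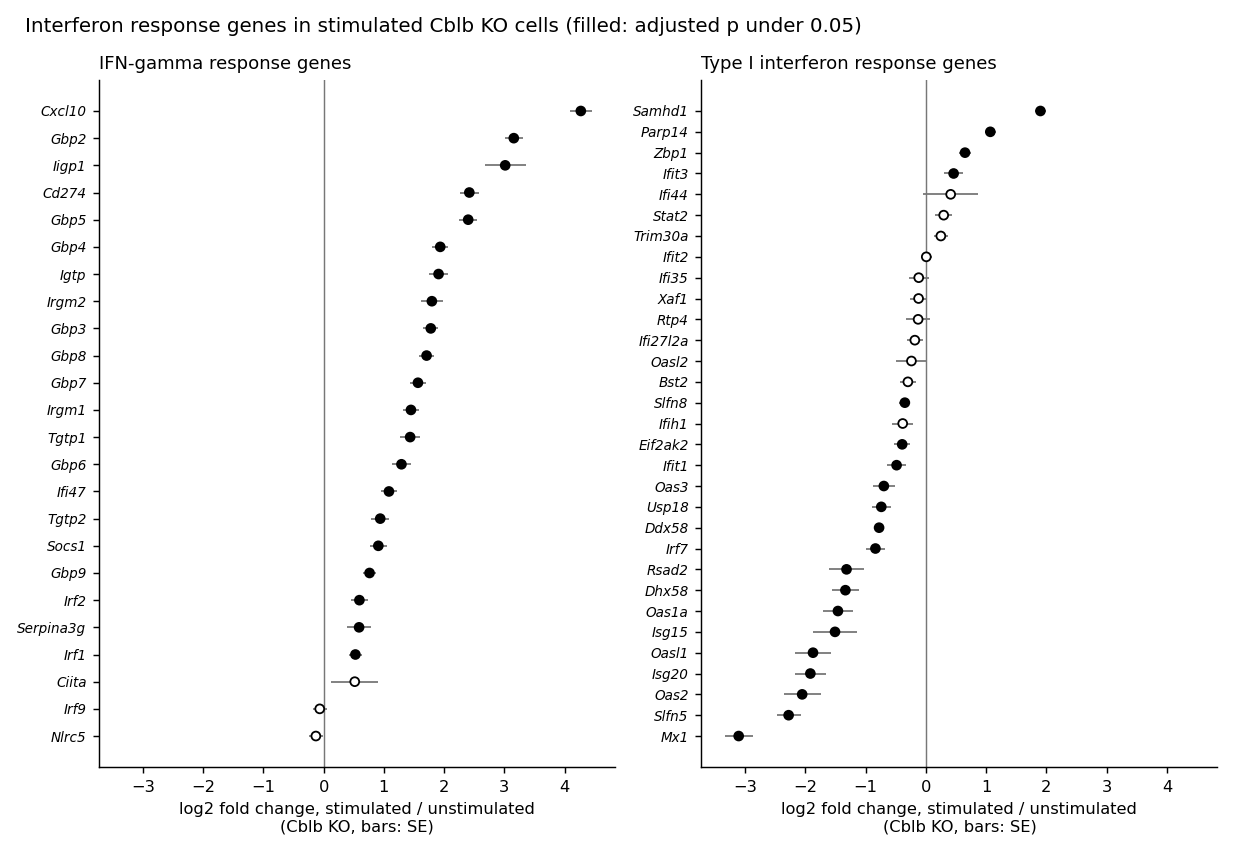
Log2 fold change of both-antibody over unstimulated KO cells, with standard errors, for 24 of the 25 tested genes of the interferon-gamma list (left) and the 31 of the type I interferon list (right), filled where called. The interferon-gamma genes reach up to 4.27 and most type I genes lie below 0, down to -3.11.

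The start regions of 5 of these genes are printed to show the letters of the motifs bound by interferon-activated factors, for 3 genes of the interferon-gamma list (Gbp2, Irf1 and Cxcl10) and 2 of the type I list (Isg15 and Slfn5). Irf1, a transcription factor, had 603, 569 and 446 CPM with both antibodies and 346, 371 and 406 CPM unstimulated, and Isg15, a ubiquitin-like modifier, had 2.16, 1.67 and 1.58 CPM with both antibodies and 4.6, 3.88 and 7.24 CPM unstimulated; both were chosen after their values were seen. Each sequence is the 250 bases before the annotated start in RefSeq, on GRCm38.p6, 5′ to 3′ on the gene's strand, with matches in capitals: TTCNNNGAA is the gamma-activated sequence, GAS, and GAAA, any 2 bases and GAAA again (or the reverse complement) form the core of the interferon-stimulated response element, ISRE, both searched on both strands.
Gbp2: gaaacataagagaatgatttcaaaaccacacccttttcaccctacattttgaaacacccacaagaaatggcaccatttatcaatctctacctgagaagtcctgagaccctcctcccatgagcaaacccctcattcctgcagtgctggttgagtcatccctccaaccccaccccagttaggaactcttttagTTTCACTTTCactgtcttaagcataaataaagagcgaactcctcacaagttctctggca
Irf1: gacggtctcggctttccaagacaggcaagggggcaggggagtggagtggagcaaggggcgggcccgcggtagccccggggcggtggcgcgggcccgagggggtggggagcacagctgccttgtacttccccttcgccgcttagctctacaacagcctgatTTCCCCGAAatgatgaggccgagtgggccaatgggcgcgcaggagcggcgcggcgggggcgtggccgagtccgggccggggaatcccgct
Cxcl10: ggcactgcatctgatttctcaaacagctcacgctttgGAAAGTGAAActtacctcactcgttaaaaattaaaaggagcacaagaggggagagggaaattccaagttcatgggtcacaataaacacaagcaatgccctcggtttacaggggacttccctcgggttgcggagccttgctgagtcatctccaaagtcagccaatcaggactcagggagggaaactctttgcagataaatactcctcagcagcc
Isg15: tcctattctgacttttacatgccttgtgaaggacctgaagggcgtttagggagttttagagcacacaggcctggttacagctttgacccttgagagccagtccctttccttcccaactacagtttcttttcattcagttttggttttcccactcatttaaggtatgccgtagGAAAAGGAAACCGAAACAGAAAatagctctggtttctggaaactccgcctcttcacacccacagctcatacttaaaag
Slfn5: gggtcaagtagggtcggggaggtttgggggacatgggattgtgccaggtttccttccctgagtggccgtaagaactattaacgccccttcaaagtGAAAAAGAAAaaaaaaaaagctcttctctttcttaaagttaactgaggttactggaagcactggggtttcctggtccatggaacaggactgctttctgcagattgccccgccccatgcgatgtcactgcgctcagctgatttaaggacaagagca
The Gbp2 window is chr3:142620413-142620662 on the plus strand, with an ISRE match that begins 59 bases before the start. The Irf1 window is chr11:53769764-53770013 on the plus strand, 1 of 2 windows held for this gene, with a GAS match 90 bases before the start. The Cxcl10 window is chr5:92348890-92349139 on the minus strand, with an ISRE match 213 bases before the start. The Isg15 window is chr4:156200819-156201068 on the minus strand, with 3 overlapping ISRE matches at 78, 72 and 66 bases before the start, and the Slfn5 window is chr11:82951852-82952101 on the plus strand, with an ISRE match 155 bases before the start. Windows of this length were held for 27025 genes, of which 8.13% have a GAS match and 3.46% an ISRE match. Among the 18 interferon-gamma list genes with a window, 9 (50.0%) have a GAS match and 12 (66.7%) an ISRE match. Among the 23 type I list genes with a window, 6 (26.1%) have a GAS match and 11 (47.8%) an ISRE match. A match is a run of letters and does not show binding, and genes of both lists carry ISRE matches.

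Cell cycle genes had moved only in part at 12 hours. Of 21 G1 genes 9 were higher and 5 lower, of 30 DNA replication genes 15 were higher and 2 lower (7 and 1 without the pair of libraries of opposite GC lean), and of 22 mitosis genes 1 was higher and 1 lower. Cdk6, a G1 kinase, had 120.5, 152 and 196 CPM in both-antibody KO cells, against 46.5, 49.8 and 61.4 CPM in unstimulated KO cells (1.57 ± 0.16). Ccnd2, cyclin D2, rose by 0.58, and Cdkn2d, an inhibitor of G1 kinases, fell by 1.75 on the log2 scale. Mki67, the marker of cycling cells, had 17.8, 18.7 and 31.8 CPM with both antibodies and 30.8, 28.6 and 35.2 CPM unstimulated (-0.47 ± 0.27, adjusted p = 0.169), and its libraries overlapped. Top2a, the topoisomerase of dividing cells, had a log2 fold change of 0.32 ± 0.25 (adjusted p = 0.32).

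Genes of cell death and survival were split, 6 higher and 6 lower of 21 (28.6% each, 3 lower without the pair of opposite GC lean). Bcl2l1, which encodes the survival protein BCL-XL, had 27.9, 30.0 and 27.8 CPM in both-antibody KO cells, against 15, 17.2 and 14.7 CPM in unstimulated KO cells (0.86 ± 0.14). Bcl2l11, which encodes its antagonist BIM, rose by 0.55 and the death receptor Fas by 0.70. Bcl2 was lower by -0.37 in log2 fold change, a call lost under other settings (adjusted p up to 0.0841).

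Levels of the called genes differed between the 3 stimulated KO libraries. Among the 1137 genes higher by at least 2-fold, replicate 1 was the lowest of the 3 for 682 (60.0%) and replicate 3 the highest for 690 (60.7%). Among the 1179 genes lower by at least 2-fold, replicate 1 was the highest for 760 (64.5%) and replicate 3 the lowest for 726 (61.6%). Replicate 1 also had the highest and replicate 3 the lowest lean towards GC-rich genes. Lean is the median deviation in log2 CPM from each gene's mean, for genes of at least 56% GC minus those of at most 40%. It was 0.363 in replicate 1, -0.336 in replicate 2 and -1.15 in replicate 3. The part of the lean in these counts was not tested.

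The KO response was then set against the WT response to the same antibodies, as an interaction: the change in KO cells minus the change in WT cells. This difference was called higher for 2972 of 16246 genes (18.3%) and lower for 3117 (19.2%) by edgeR's quasi-likelihood test with Benjamini-Hochberg adjustment. It moved with the GC content of the genes: its median was -1.20 for genes of at least 56% GC, of which 80.2% were called lower, and with the GC correction 973 genes (5.99%) were called higher and 1480 (9.11%) lower. Without the pair of libraries of opposite GC lean, the median for these GC-rich genes was still -0.86 and 62.8% were called lower. Leaving out that pair thus removed only part of the lean. WT libraries leaned by 0.571 and 0.520 with both antibodies and by -0.747, -0.340 and -0.311 unstimulated. The WT response rests on only 2 stimulated libraries, and the higher count was 1608 without WT replicate 2 and 1791 without WT replicate 3. Named here are genes that were called in the same direction in the fit as described, with the GC correction and without the pair of libraries of opposite GC lean, with the interaction as log2 and the GC-corrected value after it.

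Cytokine genes were among the higher differences that met this condition. Ifng had 233, 502 and 674 CPM in both-antibody KO cells and 6.18, 7.24 and 7.76 CPM in unstimulated KO cells, against 69.5 and 58.6 CPM in both-antibody WT cells and 6.64, 8.93 and 10.2 CPM in unstimulated WT cells, an interaction of 3.14 ± 0.48 (GC-corrected 2.49, adjusted p = 0.00339). All 3 stimulated KO libraries lay above both stimulated WT libraries. Of the 25 interferon-gamma response genes, however, 0 were called higher and 9 lower in the interaction (median -0.46). With the GC correction 0 were higher and 16 lower (median -0.78). Over all genes 19.2% were called lower, and 9.11% with the GC correction. In WT cells 23 of the 25 were higher with both antibodies (median 1.93), against 22 in KO cells (median 1.44). Lta had 15.2 and 14.1 CPM in both-antibody WT cells and 3.99, 4.49 and 4.3 CPM in unstimulated WT cells, an interaction of 1.42 ± 0.37 (2.27). Il2ra had 41.3 and 45.2 CPM in both-antibody WT cells and 1.49, 0.836 and 0.849 CPM in unstimulated WT cells, an interaction of 1.80 ± 0.43 (1.26). Tnfsf11 (2.36, corrected 1.93) and Cd200 (2.70, corrected 2.14) also had higher interactions, as did Plk2, a polo-like kinase (2.41, corrected 2.18), Ell2, an elongation factor of RNA polymerase II (2.39, corrected 1.55), and Chek1, a checkpoint kinase (2.22, corrected 1.46).

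Differences in other genes also met the condition. Eomes had an interaction of 0.92 ± 0.24 (1.43): in WT cells it had 40.4 and 38.3 CPM with both antibodies and 67.6, 62.4 and 57.7 CPM unstimulated. Bcl2 had an interaction of 1.01 ± 0.19 (0.66), and Tgfbr2 of -0.53 ± 0.15 (-0.58), so Tgfbr2 changed downward more in KO cells than in WT cells, a call lost without WT both-antibody replicate 3 (adjusted p = 0.0532). The lowest interactions were those of short or structured non-coding RNAs and histone genes, including Rmrp, the RNA of RNase MRP (-6.23, corrected -4.65), Rpph1, the RNA of RNase P (-4.44, corrected -2.58), Hist1h4h (-4.74, corrected -3.82), Hist1h3f (-3.69, corrected -3.89) and Mir142hg, the host of the microRNA miR-142 (-3.54, corrected -2.36). Histone genes have near-identical copies, which makes their single values uncertain. The RNAs Rn7s and Rn7sk took 9.45%, 5.88% and 2.65% of counts in both-antibody KO libraries and 11.5%, 13.1% and 7.825% in unstimulated ones. In WT cells they took 11.4% and 9.94% with both antibodies and 3.98%, 6.05% and 6.03% unstimulated. Clustered histone genes took least, 0.0145%, in both-antibody KO replicate 3 and most, 0.0914%, in unstimulated KO replicate 2. These libraries also had the lowest and the highest GC lean. The part of these library traits in the interactions was not tested.

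Other genes of the response lost the call of a difference from WT under at least 1 of these settings, with values of the same sign. The interactions of Il2 (4.77 ± 1.34, corrected 3.79), Csf2 (2.02 ± 0.78, corrected 1.51), Ccl3 (1.59 ± 0.45, corrected 1.24), Ccl9 (2.71 ± 0.78, corrected 2.01), Xcl1 (0.68 ± 0.24, corrected 0.31) and Irf4 (0.57 ± 0.21, corrected 0.33) passed the test in the fit as described, and none passed with the GC correction. Gzmb (2.73 ± 0.65, corrected 2.36), Tnf (0.87 ± 0.26, corrected 1.12) and Cish (1.21 ± 0.39, corrected 1.61) passed with the GC correction and did not pass without the pair of libraries. Among the 44 core genes of T cell activation, 18 (40.9%) were called higher and 8 (18.2%) lower in the interaction, and 10 (22.7%) higher and 4 (9.09%) lower with the GC correction. For the early gene Fos (0.19 ± 0.24) and for Tnfrsf9 (0.31 ± 0.18) no difference between the genotypes' responses was called.

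**Figure D4:**
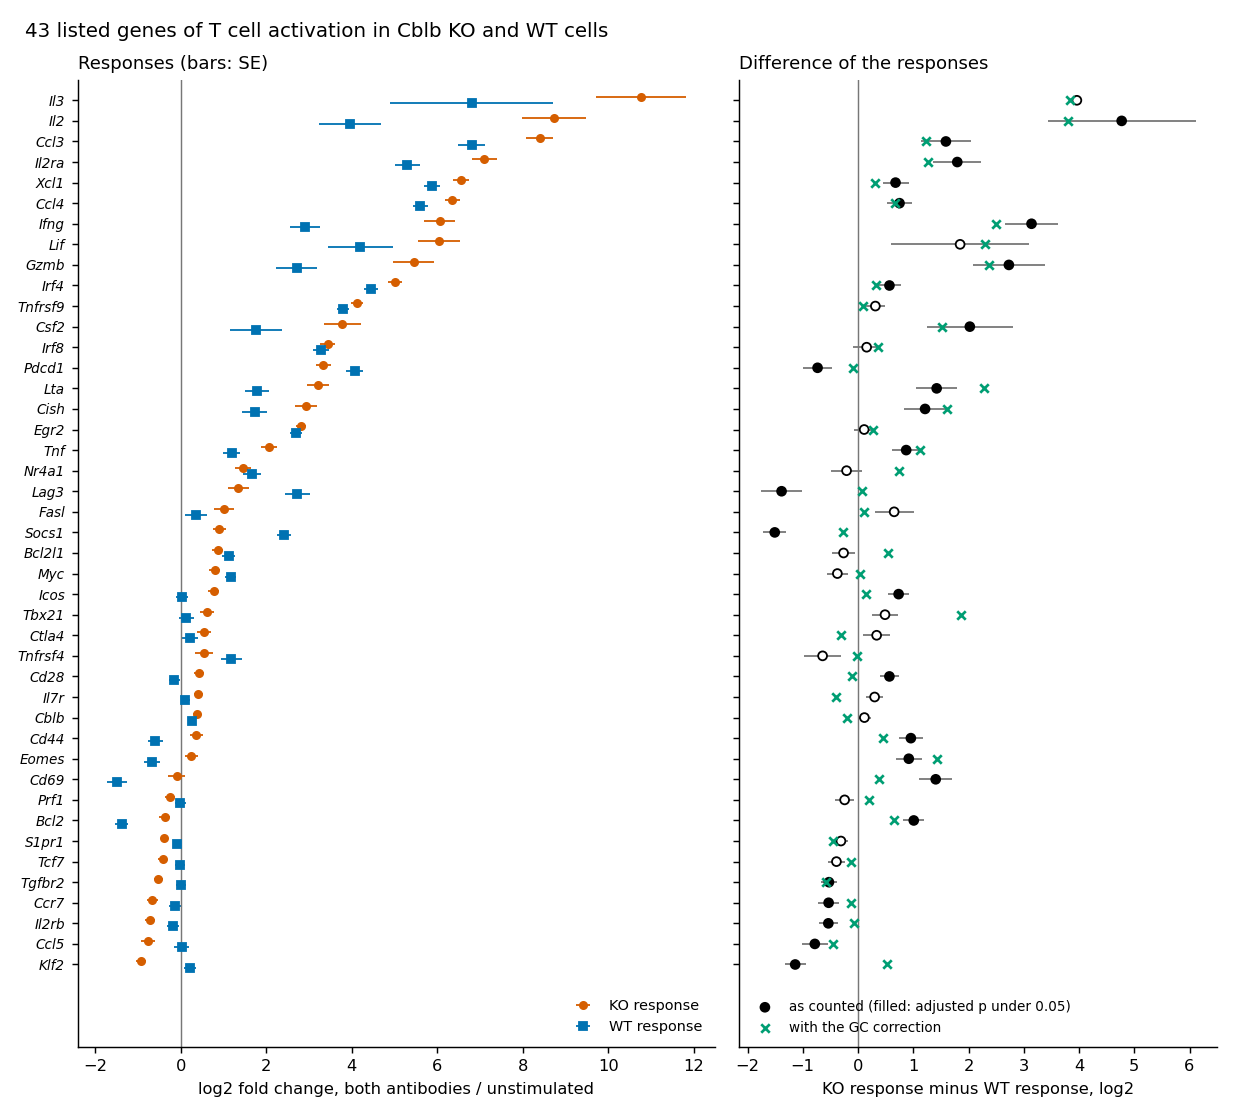
Left, log2 fold change of both-antibody over unstimulated cells in KO (circles) and WT (squares) for 43 of the 44 core genes, with standard errors; right, KO response minus WT response on the log2 scale as counted (circles, filled where called, with standard errors except for Il3) and with the GC correction (crosses). Ifng was at 6.05 in KO cells and 2.91 in WT cells, and several filled circles, such as that of Socs1, have crosses near 0.

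Finally, KO cells given both antibodies were compared with KO cells given anti-CD3 alone, to read what anti-CD28 added. No gene of 16246 (0%) was called higher or lower by edgeR's quasi-likelihood test with Benjamini-Hochberg adjustment, and none by DESeq2. At an unadjusted p under 0.05, 1460 genes passed in edgeR and 1511 in DESeq2. A limma fit with sample quality weights called 2250 higher and 3300 lower, and without both-antibody replicate 1 edgeR called 44 higher and 584 lower. In a test on simulated counts, 194 of 200 genes changed 2-fold (97%) were recovered. The simulated libraries had no GC lean, and the changed genes had a mean log2 CPM of at least 2. The recovery therefore does not tell how many such changes the real libraries would show.

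None of the 44 core genes was called in this comparison. Ifng had 233, 502 and 674 CPM in both-antibody KO cells, against 328, 439 and 572 CPM in anti-CD3 KO cells (0.07 ± 0.29, adjusted p = 0.932). The libraries of the 2 groups overlapped. Pdcd1 had 20.9, 25.1 and 25.1 CPM with both antibodies and 34.4, 29.1 and 40.3 CPM with anti-CD3 alone (-0.55 ± 0.15, adjusted p = 0.547), without overlap but without passing the test. Over the 44 core genes the log2 fold changes ran from -0.56 for Lif to 0.23 for Csf2, and the smallest adjusted p was 0.547. In the fit of all 17 libraries, the 95% interval of the difference lay within 1 log2 unit of 0 for 43 of them, Lif being the exception. For these 43 genes differences beyond 2-fold lay outside the interval in that fit. The values depend on the replicates: that of Csf2 ran from -0.0512 to 0.536 when each replicate was left out. A p above the threshold does not show that the stimulations act alike. The anti-CD3 response shares the unstimulated KO libraries with the both-antibody response: against those, the log2 fold change of Ifng was 6.05 ± 0.37 with both antibodies and 5.98 ± 0.37 with anti-CD3 alone, that of Il2ra 7.09 ± 0.29 with both and 7.16 ± 0.29 with anti-CD3 alone, and that of Irf4 5.02 ± 0.16 with both and 5.09 ± 0.16 with anti-CD3 alone.

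**Figure D5:**
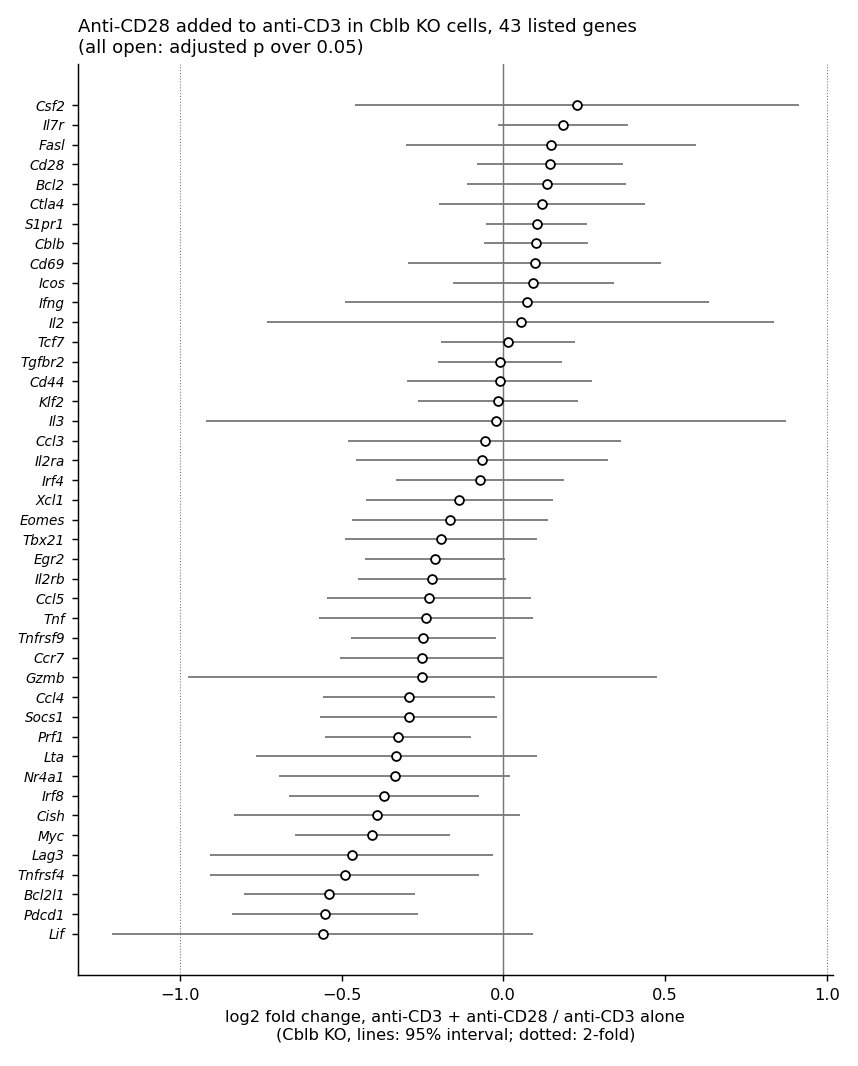
Log2 fold change of both-antibody over anti-CD3 KO cells with 95% intervals for 43 of the 44 core genes. No gene passed the test, and all intervals but that of Lif lie within 1 log2 unit of 0.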

How the data were processed

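RNA of CD8+ T cells was sequenced as paired-end reads after ribosomal RNA removal with a strand-specific kit, per the labels' protocols. The authors deposited whole-number counts per gene for each library, made with STAR 2.5.2 and RSEM 1.3.0 on GRCm38, per the submitters' processing notes. Which annotation release, strand setting and rounding were applied is not given in the sources used, and reads shared by near-identical, overlapping or antisense genes may be divided between them. The joint table of these libraries repeats the same counts and was left out. Symbols, positions and GC content came from a GENCODE annotation of GRCm38 (53650 of 53679 genes matched), and promoter windows from RefSeq.

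Counts of all 17 libraries were fitted with edgeR 4.0.16 in R 4.3.3: filterByExpr (16246 genes), TMM scaling, and a robust quasi-likelihood fit with 1 coefficient per group, which shares the estimate of spread (common biological coefficient of variation 0.153). P-values were adjusted by Benjamini-Hochberg over all genes tested in a comparison, and a gene was called below 0.05. CPM were computed from TMM-scaled totals. The GC correction was an offset per library from a loess curve of log2 CPM on GC content (span 0.3). Totals ran from 16635826 to 38269033 counts apart from unstimulated KO replicate 2, and low counts limit genes such as Il2 and Il3. No 2 libraries of any group agreed within sampling noise (chi-square per gene of at least 3.81). On simulated counts with 200 genes changed 2-fold, 196 were recovered in the comparison with unstimulated cells (15 unchanged genes called of 15822 fitted), 130 in the interaction and 194 in the comparison with anti-CD3. Simulated libraries had no GC lean, and the changed genes had a mean log2 CPM of at least 2.

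The members and the 39 gene lists were chosen with earlier results of these data known, so counts over a list describe it and are not a test. Genes were named by a rule: 44 core T cell genes; the 10 called genes with the highest and the 10 with the lowest fold change in the response, with non-overlapping libraries a mean log2 CPM of at least 2 over the 17 libraries and no predicted genes; up to 4 called genes per direction and 2 uncalled genes per list; and the 8 highest and 8 lowest called genes of the other comparisons. Not every named gene is described, and results for a few are not reported here. Replicate numbers were not treated as pairs. Alternatives were other scaling (RLE), DESeq2 1.42.0, limma 3.58.1 (voom, quality-weighted samples), filtering genes not at all or by 1 CPM in 3 libraries, the GC correction, a replicate block, both together, leaving out the 2 libraries of most extreme GC lean, thinning the deepest library, fitting only the groups compared, and leaving out each replicate.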

Additional observations from a re-analysis of the deposited data

Results flagged for a closer look

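Among the core genes, 6 differed in their response between the genotypes by the interaction test and kept that call with the GC correction and after dropping the 2 libraries that leaned most by GC. The KO response minus the WT response was 3.14 for Ifng, 1.80 for Il2ra, 1.42 for Lta, 1.01 for Bcl2, 0.92 for Eomes and -0.53 for Tgfbr2 on the log2 scale. The first 3 rose in both genotypes and more in KO cells, while Eomes, Bcl2 and Tgfbr2 had small changes in KO cells.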

How the results depend on the processing

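Of 175 genes named as called in the KO response to both antibodies, 164 kept the call and direction under every alternative run, as did 15 of 25 named as called in the difference from the WT response. The counts of 3731 higher and 3648 lower genes became 2254 and 2480 after dropping the 2 libraries that leaned most by GC, 2041 and 1949 when only the groups compared were fitted (fewer samples), and 2799 to 4144 higher and 2662 to 4277 lower when each replicate was left out. With the GC correction they were 3288 and 3793, and 5161 of the 7379 called genes kept call and direction while 355 changed sign. The difference from the WT response gave 973 higher and 1480 lower genes with the GC correction, 1738 and 2035 without those 2 libraries, 1905 higher when only the groups compared were fitted, and 1608 to 3659 higher and 2207 to 3723 lower without each replicate. Of the 6089 genes called in that difference, 1540 kept call and direction with the GC correction and 1190 changed sign. In the comparison with anti-CD3 alone, limma called 2250 higher and 3300 lower, and leaving out each replicate gave 0 to 44 higher and 0 to 584 lower, with all calls made without both-antibody replicate 1. The cause was not tested.

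Same-numbered libraries of both-antibody and unstimulated KO cells correlated at -0.101, 0.205 and 0.632 in their deviations from the group means. Libraries of different number correlated at -0.683 to 0.621. Between both-antibody and anti-CD3 KO cells the values were 0.228, 0.0184 and 0.123 for the same number and -0.192 to 0.0452 for different ones. Whether the numbers pair the samples is not settled by these values. With a replicate block 3651 genes were higher and 3575 lower in the KO response. With the block and the GC correction together, the difference from WT gave 1062 higher and 1455 lower genes, and the comparison with anti-CD3 gave 1 lower gene.

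Among the genes named here, signs turned for some values near 0. With the GC correction, and with the block added to it, the log2 fold changes in the KO response were 0.377 and 0.348 for Egr1, -0.00691 and -0.00867 for Il7r, 0.149 and 0.146 for Ltb, and 0.00743 and 0.0037 for Prf1. Top2a was -0.00848 with the block and GC correction and -0.151 without the 2 libraries. Against anti-CD3, Ifng was -0.139 with the GC correction, -0.00102 with the block, -0.172 with both, -0.265 without the 2 libraries and -0.28 to 0.40 when each replicate was left out, and Csf2 was -0.0373 without the 2 libraries and -0.0512 to 0.536 when each replicate was left out. Depth limits the low-count genes Il2, Il3, Lif and Csf2.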
